A study of Mus musculus with 6 samples.

Results

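Processed pseudogenes are copies of spliced mRNAs that were written back into the genome by reverse transcription. They therefore lack the introns of the parent gene, end in a former poly(A) tail, and usually carry no promoter of their own. Where such a copy lies in an intron of a host gene on the host's strand, its bases are part of the unspliced host transcript, and a library of total RNA also samples transcripts that are not yet spliced. A copy on the other strand is not part of that transcript.

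The members described here were selected on the deposited values and on their annotation. They are the 129 processed pseudogenes with a mean normalised read count of at least 10 over the 6 hearts, out of 1407 processed pseudogenes and 21776 genes in the table. Each was classed by its coordinates as lying inside a protein coding gene on the same strand, inside one on the opposite strand, or intergenic. The mean chose the members, so their levels are given as a description. Both group means were at least 10 in 117 members, only the WT mean was in 5, and only the KO mean was in 7.

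The hearts came from 3 *Trdn-as* KO mice and 3 WT mice, and 1 strand-specific total RNA library was made from each. In the KO mice a polyA cassette in exon 1 of *Trdn-as*, placed in mouse ES cells, ends the transcription of this antisense RNA of the triadin gene *Trdn*. The lines were bred from ES cell clones by way of chimeras and backcrossing to C57BL/6, the allele is homozygous, and the age of the sequenced mice is not given in the sources used here. The construction described is not limited to cardiomyocytes, whereas the design text of the series places the deficiency in cardiomyocytes, a difference that the sources used here do not settle. The WT mice are the controls. Nothing in the labels says how many ES cell clones or litters the 3 KO hearts stand for, so p-values measure the spread between these hearts only.

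*Trdn-as*, listed as *AC157017.2*, was at 1, 0 and 1 in KO and at 690, 773 and 688 in WT, a ratio of estimated reads of 1152 with an exact 95% counting interval from 318 to 9516. The values of each library summed to between 3.13 and 3.25 M, estimated to stand for 2.59 to 3.62 M counted reads. All 8 cardiomyocyte markers examined had means from 652 to 10163, and they summed to 21890 to 23236 in KO and 22683 to 27864 in WT, whereas the skeletal muscle myosins *Myh1* and *Myh4* were not listed. The other skeletal muscle markers, *Tnnt3* and *Acta1*, summed to 335 to 388 in KO and 407 to 572 in WT. The fibroblast markers *Col1a1*, *Dcn* and *Pdgfra* summed to 1727 to 1925 in KO and 1778 to 2012 in WT, the endothelial markers *Pecam1*, *Cdh5* and *Kdr* to 2991 to 3450 and 2978 to 3426, the leukocyte markers *Ptprc* and *Cd68* to 174 to 250 and 174 to 226, and the blood markers *Hba-a1* and *Hbb-bs* to 57 to 98 and 65 to 131. In whole hearts, fewer cells of a type and less RNA per cell cannot be told apart.

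To see what kind of sequence was counted, each member's annotated transcript (GENCODE M21, GRCm38) was aligned to the protein coding transcripts of other genes, and the closest one was taken as the parent. The 6 stretches below were taken from coding sequence and have 80 bases each. They include the pseudogene with the smallest p-value, both other pseudogenes inside *Trdn*, a member on the strand opposite to its host, a copy of a glycolytic gene and one of the 8 highest members. Bases that differ between a pseudogene and its parent are in capitals, and all are written 5′ to 3′ on the pseudogene's own strand. In *AC109214.2*, *Gm13315*, *Fabp3-ps1* and *Gm14769* the parent's stretch is joined from 2 exons after base 40.
AC109214.2: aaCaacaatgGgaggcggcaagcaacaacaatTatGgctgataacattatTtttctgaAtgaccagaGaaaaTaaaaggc
Ssbp1: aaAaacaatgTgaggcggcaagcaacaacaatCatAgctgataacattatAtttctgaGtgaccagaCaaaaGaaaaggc
AC109214.4: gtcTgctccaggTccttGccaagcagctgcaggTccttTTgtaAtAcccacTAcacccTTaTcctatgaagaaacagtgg
Litaf: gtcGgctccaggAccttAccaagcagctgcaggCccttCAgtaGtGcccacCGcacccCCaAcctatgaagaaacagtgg
AC157017.1: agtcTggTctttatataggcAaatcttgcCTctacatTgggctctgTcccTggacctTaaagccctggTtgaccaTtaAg
Sdhaf3: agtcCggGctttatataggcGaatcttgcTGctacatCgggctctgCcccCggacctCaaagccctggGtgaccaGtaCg
Fabp3-ps1: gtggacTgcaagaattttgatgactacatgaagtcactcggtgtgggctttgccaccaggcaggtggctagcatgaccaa
Fabp3: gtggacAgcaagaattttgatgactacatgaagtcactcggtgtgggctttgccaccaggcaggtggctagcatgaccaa
Gm13315: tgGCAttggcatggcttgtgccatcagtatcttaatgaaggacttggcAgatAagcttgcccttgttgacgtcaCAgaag
Ldha: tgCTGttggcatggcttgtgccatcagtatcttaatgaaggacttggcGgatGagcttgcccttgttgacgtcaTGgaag
Gm14769: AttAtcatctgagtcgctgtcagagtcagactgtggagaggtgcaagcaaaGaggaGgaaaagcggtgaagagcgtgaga
Fam133b: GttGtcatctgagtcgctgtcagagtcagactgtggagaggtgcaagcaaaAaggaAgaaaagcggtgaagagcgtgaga

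The stretch of *AC109214.2* (chr10:33464252-33464331, plus strand) differed from *Ssbp1*, which encodes the single-stranded DNA binding protein of mitochondria, at 8 of 80 bases. In *Ssbp1* the bases left and right of the join belong to exons 6 and 7, which are 2841 bases apart in the genome, while in the pseudogene they are adjacent. *AC109214.4* (chr10:33412076-33412155, plus strand) differed from *Litaf*, the gene of a late endosome protein, at 13 bases, and *AC157017.1* differed from *Sdhaf3*, an assembly factor of succinate dehydrogenase, at 12. *Fabp3-ps1* (chr10:86732276-86732355, minus strand) differed at 1 base from *Fabp3*, the fatty acid binding protein of heart muscle, across a join of exons that lie 3440 bases apart. *Gm13315* (chr2:14721219-14721298, plus strand) and *Ldha*, the lactate dehydrogenase A gene, differed at 7 bases, and *Gm14769* (chrX:84063590-84063669, plus strand) and *Fam133b* at 4. A read of 75 bases over such a stretch can thus hold few differing bases, as in *Fabp3-ps1*, or many, as in *AC109214.4*.

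A parent aligned over at least 50% of the pseudogene was found for 124 of the 129 members, with 110 distinct parents. All but 1 of the 124 were annotated in the sense direction of the parent, that is, the strand counted was the strand of the former mRNA. This describes the annotation, since no reads were examined. The median identity to the parent was 92.9%, from 64.7% for *Wdr46-ps* to 100%. Members inside a gene on the same strand had a median identity of 90.6% (n = 76), those on the opposite strand 99.1% (n = 6), and intergenic members 96.6% (n = 42). The authors discarded reads of more than 1 location, and 58 members had no word of 75 bases in common with another annotated transcript. At least 1 shared word was present in 35 of 77 members on the same strand, 5 of 6 on the opposite strand and 31 of 46 intergenic members. In 20 members more than 50% of the words were shared. The intergenic members *Tpt1-ps3*, *Ptges3-ps* and *Gm9762* and the opposite-strand member *Gm14117* shared all their words with another transcript and still had means of at least 10. These 4 are uncertain, since their reads cannot be told apart by the annotated sequence. *Wdr46-ps* and the 3 intergenic members were named after their values were seen.

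**Figure D1:**
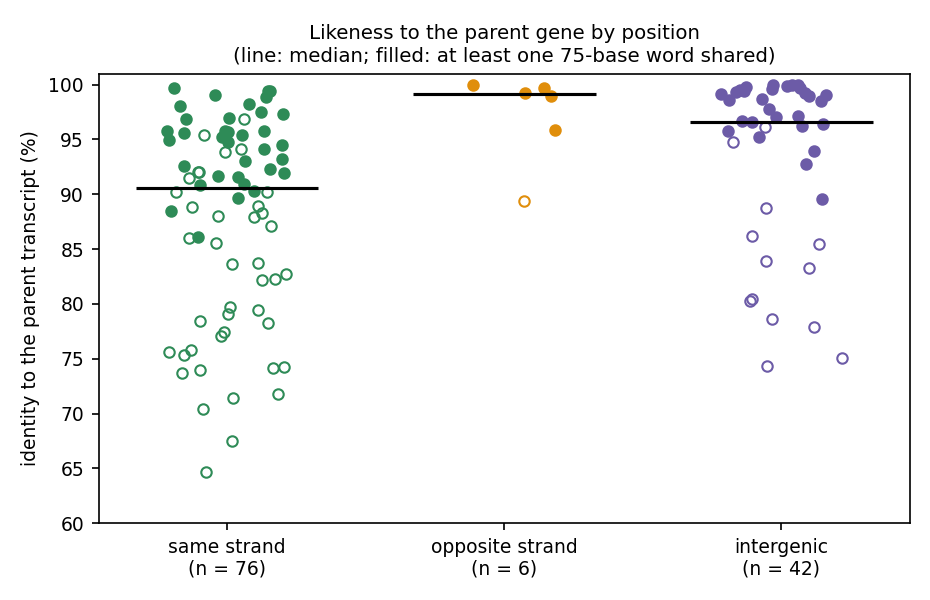
Identity of each pseudogene to its parent transcript in percent, by position class, for the 124 members with a parent. Lines are medians (90.6, 99.1 and 96.6%), and filled points have at least 1 word of 75 bases in common with another annotated transcript; the same-strand members reach lower identities than the others.

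The first comparison asked where the counted pseudogenes lie. Of the 129 members, 77 (59.7%) were inside a protein coding gene on its own strand, 6 (4.65%) were inside one on the opposite strand and 46 (35.7%) were intergenic. Among all 1407 listed processed pseudogenes, 354 (25.2%) were on the same strand, 144 (10.2%) on the opposite strand and 909 (64.6%) intergenic. Among the 9940 processed pseudogenes annotated in GENCODE M21, these shares were 7.93%, 13.5% and 78.5%. Hosts were all protein coding genes of GENCODE M21 for this set, and only the listed ones for the other sets. With all GENCODE M21 hosts, the shares were 61.2%, 4.65% and 34.1% for the members. For the listed pseudogenes they were 28.1%, 11.9% and 60.1%. Seen from the classes, 21.8% of the listed same-strand pseudogenes reached a mean of 10, compared with 4.17% on the opposite strand and 5.06% of the intergenic ones. The median of the means over all listed pseudogenes was 3.67 on the same strand, 1.17 on the opposite strand and 1.33 between genes. These shares and medians describe the values that chose the members and were not tested.

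**Figure D2:**
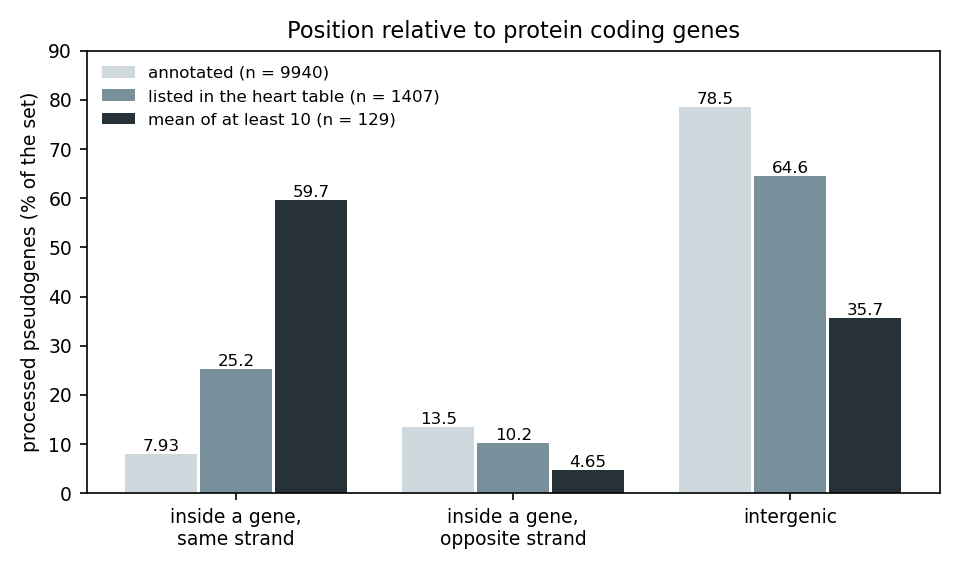
Share in percent of processed pseudogenes in each position class, for all annotated ones (n = 9940), those listed in the heart table (n = 1407) and those with a mean of at least 10 (n = 129). The same-strand share is 7.93, 25.2 and 59.7%, and the opposite-strand share is 13.5, 10.2 and 4.65%. Hosts are all protein coding genes of GENCODE M21 for the annotated set, and only the listed ones for the other sets.

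The 77 same-strand members lay in 72 host genes. Counted once per member, their hosts had a median length of 119 kb and a median mean of 500.8. All protein coding genes with a mean of at least 10 had 25.3 kb and 128. This contrast is a description, since the members were chosen by level. In 76 of the 77 the pseudogene touched no annotated exon of the host, and the introns around them had a median length of 20.1 kb, from 2.52 to 497 kb. Per kilobase, the same-strand members had a median of 0.532 times the density of reads over the exons of the host, with the merged exon length used for the pseudogene too, which is shorter than its span in 9 of the 129 members. That ratio ranged from 0.0612 for *Gm15793* in *Acadl*, named after its value was seen, to 34.0 for *Gm2962* in *Fcrla*, and was above 1 in 15 members. Across these 77 pairs, reads per kilobase of the pseudogene and of the host had a Spearman rho of 0.498, which is a description, since each pair shares its libraries and the choice by level. Reads of a transcript of the pseudogene alone and of unspliced host RNA cannot be told apart in gene counts.

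Most members were low. The mean was under 20 in 80 members, from 20 to under 50 in 43 and at least 50 in 6, and no member was listed at 0 in any heart. Within a member, the highest heart was 1.79 times the lowest in the median. Just inside the limit, *Gm13315* in *Cacnb2*, *Gm42584* in *Kcnd2* and the intergenic *Gm2830* had means of 10. Just outside it, *CT009754.6* and *Gm8813* in *Arfip1* had means of 9.83 and *Gm9625* one of 9.67. From 9 to under 10 there were 19 processed pseudogenes, and from 10 to under 11 there were 17, so the limit cuts through a continuous range of low values.

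The 8 highest members are 7 pseudogenes inside genes and 1 intergenic one, and none of the 7 is on the opposite strand. *Gm18066*, a copy of the lysyl-tRNA synthetase gene *Kars* (79.1% identity), lies in an intron of 117 kb of *Palld*, which encodes the actin-associated protein palladin. It had 129, 172 and 104 normalised reads in KO and 166, 131 and 184 in WT. The groups overlap, with a log2 fold change of −0.26 (SE 0.15). *Gm12097* resembles *Ccdc47* (93.2%), a gene of the endoplasmic reticulum membrane, and lies in *Acyp2*, which encodes an acylphosphatase. Its values were 105, 100 and 116 in KO and 108, 119 and 128 in WT. *AC131743.4*, a copy of the ribosomal protein gene *Rps6* (75.3%) in *Dip2c*, had 68, 79 and 74 in KO and 69, 79 and 61 in WT. Both sets of values overlap, as they do in the next members.

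*Gm7584*, a copy of the chromodomain gene *Cdyl* (94.4%), lies in *Txlnb*, which encodes a taxilin of muscle. It had 65, 71 and 73 in KO and 60, 73 and 76 in WT. *Gm14769* lies in *Dmd*, the dystrophin gene, in the middle of 2257 kb. Its values were 78, 65 and 64 in KO and 62, 52 and 93 in WT, with WT spread more widely than KO. *Gm18981* resembles the nuclear receptor gene *Nr5a2* (88.0%) and lies in *Cacna1c*, the pore subunit of the L-type calcium channel, where it was at 74, 57 and 47 in KO and 63, 80 and 82 in WT. *Gm14239*, a copy of *Cdv3* (90.2%) in the coactivator gene *Ncoa6*, had 46, 53 and 50 in KO and 34, 52 and 56 in WT. The intergenic *Gm9403*, a diverged copy of the chaperone gene *Hsp90ab1* (77.9%), had 33, 44 and 56 in KO and 38, 48 and 58 in WT. In none of these 8 did KO and WT separate.

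**Figure D3:**
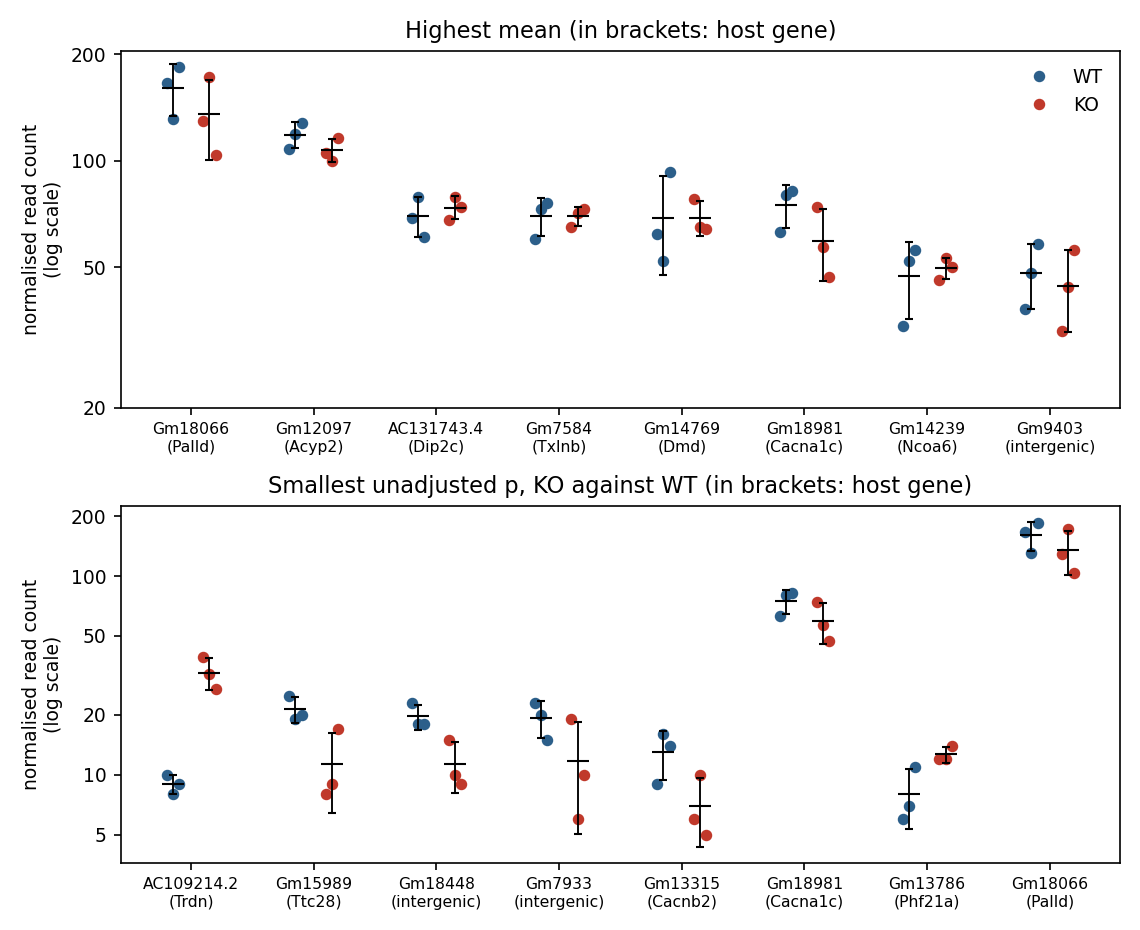
Normalised read count of each heart (log axis) for the 8 members with the highest mean (top) and the 8 with the smallest unadjusted p-value (bottom); blue points are WT, red points KO, and bars are the mean ± SD (n = 3). In the bottom panel AC109214.2, Gm15989, Gm18448 and Gm13786 have no overlap between groups, while all 8 in the top panel overlap.

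The second comparison asked which pseudogenes differed between KO and WT. With limma across 13753 genes on log2(value + 1), 4 genes had an adjusted p under 0.05, which is 0.0291% of those tested. Of the 129 members 1 did, *AC109214.2* inside *Trdn*. At an unadjusted p under 0.05 there were 5 members (3.88%), compared with 5.74% of all genes. Higher in KO among these was 1 member (0.775%), against 2.94% of all genes, and lower were 4 members (3.10%), against 2.8% of all genes. Separate values in KO and WT were found in 6 members (4.65%), compared with 9.07% of all genes. At the unadjusted level and by separate values, the shares of the members are thus close to those of all genes or below them, while the share called after adjustment, 0.775%, rests on 1 member. The precision of the members was lower than that of all genes, with a median SE of the log2 fold change of 0.29 against 0.12.

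As a group the pseudogenes stood near 0. The median log2 fold change was −0.02 over the 129 members and 0.00 over all genes. By class it was 0.01 on the same strand (41 higher and 36 lower in KO), −0.06 on the opposite strand (3 and 3) and −0.08 between genes (18 and 28). Summed over the class in each heart, the same-strand members gave 1882, 1887 and 1947 in KO and 1749, 1892 and 2115 in WT. The 46 intergenic members gave 746, 756 and 750 in KO and 765, 788 and 818 in WT. The intergenic sums of the KO hearts were thus all below those of the WT hearts, by a ratio of means of 0.950, and the same-strand sums overlapped.

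Beyond *AC109214.2*, no named member passed the adjusted threshold. *Gm15989*, a copy of the ubiquitin ligase gene *Mkrn1* (92.0%) in an intron of 20.1 kb of *Ttc28*, had 8, 9 and 17 in KO and 25, 19 and 20 in WT. All KO values were below all WT values (log2 fold change −0.92, SE 0.31, limma adjusted p = 0.772). The intergenic *Gm18448* had 15, 10 and 9 in KO and 23, 18 and 18 in WT, again without overlap (log2 fold change −0.77, SE 0.29, adjusted p = 0.807 in limma). Its closest coding transcript was *Crb1* (74.3%), a gene known from photoreceptors.

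*Gm7933*, an intergenic pseudogene that aligned to the splicing factor gene *Prpf3* over only 46.0% of its length and so was given no parent, had 19, 6 and 10 in KO and 23, 20 and 15 in WT, which overlap in 1 KO heart. *Gm13315*, the copy of *Ldha* in the calcium channel subunit gene *Cacnb2*, had 6, 10 and 5 in KO and 9, 16 and 14 in WT. KO replicate 2 there exceeded WT replicate 1. *Gm13786*, a copy of *Rpl34* (82.2%) in the histone reader gene *Phf21a*, was at 12, 12 and 14 in KO and 6, 7 and 11 in WT. The groups did not overlap, but its WT mean is under 10 and it became a member by its KO values, which favours such a separation. Its difference was 0.64 (SE 0.34) on the log2 scale. In the same way *Gm13315* became a member by its WT values. *Gm18981* and *Gm18066*, described above, complete the 8 with the smallest p-values, at unadjusted limma p-values of 0.0541 and 0.0930.

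The third comparison set each pseudogene beside the gene around it. *AC109214.2* (ENSMUSG00000111980, chromosome 10, 33463905 to 33464348, plus strand) is named Gm20304 in GENCODE M21. It lies 383 kb from the start of *Trdn*, 96.8% along the gene, and outside its exons. It had 39, 32 and 27 normalised reads in KO and 10, 8 and 9 in WT, so every KO heart was above every WT heart. KO averaged 32.7 ± 6.03 and WT 9 ± 1 (SD, n = 3 each). Since the WT mean is under 10, it became a member by its KO values. *Trdn* itself had 2489, 2381 and 2551 in KO and 1541, 1541 and 1516 in WT.

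The log2 fold change was 1.74 (SE 0.27, limma adjusted p = 0.0117) for *AC109214.2* and 0.69 (SE 0.05) for *Trdn*. In the fit without a filter on the mean, which does not depend on how *AC109214.2* became a member, its limma adjusted p was 0.00754. The value of *Trdn* pools reads over all its exons, while the pseudogene marks 1 place in an intron. The paper reports that the KO raised *Trdn* transcription downstream of *Trdn-as*. It also reports a separate sense transcript from the *Trdn-as* promoter in WT hearts. A part is thus set against a whole whose parts need not change alike. The difference between *AC109214.2* and *Trdn* was 1.051 on the log2 scale, with a 95% interval from 0.48 to 1.62. Tested as an interaction with limma over all 1168 annotated features that lie inside a tested protein coding gene, its unadjusted p was 9.2e-04 and its adjusted p 0.265. Of these 1168 pairs 1 passed the adjusted threshold (0.0856%), namely *Trdn-as* against *Trdn*, and it is no pseudogene. The call of *AC109214.2* was lost when KO replicate 2, WT replicate 1 or WT replicate 2 was left out and in limma without the mean-variance trend, with adjusted p-values up to 0.185, while the log2 fold change stayed between 1.61 and 1.87. *Trdn* was not called in limma without the trend either (adjusted p = 0.145), and was called in each of its other alternatives. *AC109214.2* could not be tested where at least 10 reads were asked of every heart, since 2 WT hearts are below that.

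There are 2 further processed pseudogenes in *Trdn*, both with means under 10 and therefore no members. *AC157017.1* (33211085 to 33211632), the copy of *Sdhaf3* at 131 kb from the start, had 14, 9 and 10 in KO and 3, 1 and 1 in WT. *AC109214.4* (33412076 to 33412528), the copy of *Litaf* at 332 kb, had 13, 8 and 11 in KO and 3, 3 and 4 in WT. Neither overlaps between groups. In estimated reads, *AC157017.1* was 7.995 times higher in KO (36 against 4 reads) with an exact 95% counting interval from 2.87 to 30.9, and *AC109214.4* was 3.36 times higher (34 against 9 reads) with an interval from 1.58 to 7.96. These intervals cover counting error only. In the fit without a filter on the mean, the limma adjusted p was 0.200 for *AC157017.1* and 0.744 for *AC109214.4*, and neither was called. *AC109214.4* exceeded the change of *Trdn* by 0.72 (SE 0.41) and *AC157017.1* by 1.54 (SE 0.48), with unadjusted limma p-values of 0.0906 and 0.00307 and adjusted ones of 0.978 and 0.751.

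The next values are scaled to the reads over all *Trdn* exons in the same heart, again a part against the whole. *AC109214.2* had 1.57, 1.34 and 1.058 reads per 100 *Trdn* reads in KO and 0.649, 0.519 and 0.594 in WT. *AC109214.4* had 0.522, 0.336 and 0.431 in KO and 0.195, 0.195 and 0.264 in WT. *AC157017.1* had 0.562, 0.378 and 0.392 in KO and 0.195, 0.0649 and 0.0660 in WT. For all 3 pseudogenes the KO hearts lie above the WT hearts on this scale. A sense feature of unclear type at 91.2 kb, *AC157017.3*, is no pseudogene and lies nearer to the start than all 3. It had 1.12, 1.47 and 1.176 in KO and 1.69, 1.30 and 1.98 in WT, which overlap. The annotated *Trdn-as* lies on the minus strand between 142 and 176 kb from the start of *Trdn*. *AC157017.1* is thus on the side of its annotated 3′ end. The paper reports that antisense transcription runs on past this annotated end, and it places a downstream antisense transcript further along than *AC157017.1*. This pseudogene thus lies within the stretch described there as transcribed in antisense.

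**Figure D4:**
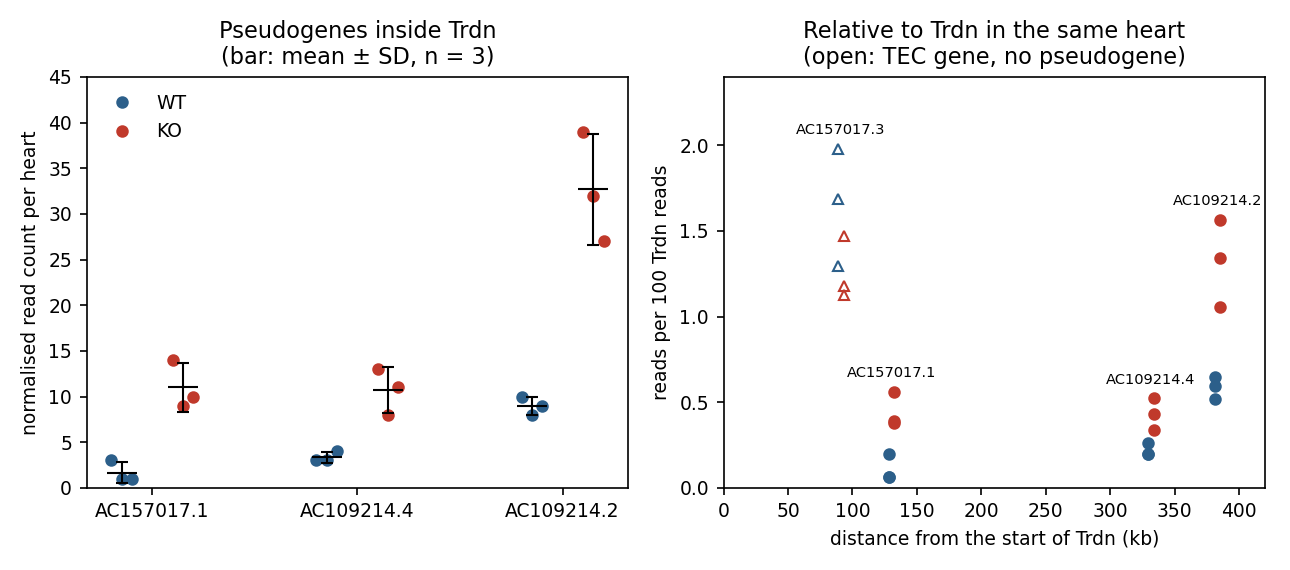
Left, normalised read count of each heart for the 3 processed pseudogenes inside Trdn (bars, mean ± SD, n = 3). Right, the same features and AC157017.3 (open triangles, a feature of unclear type) as reads per 100 Trdn reads of the same heart against the distance from the start of Trdn in kb; blue is WT and red KO, and KO lies above WT at 131, 332 and 383 kb but not at 91.2 kb.

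In the other pairs the hosts moved little. For 81 members the host had a mean of at least 10 and could be compared, 76 on the same strand and 5 on the opposite strand. None of the 81 differed from its host at an adjusted p under 0.05 in limma, while 3 (3.70%) did at an unadjusted p under 0.05, against 5.14% of all 1168 pairs. The median difference from the host was 0.03 over the 76 same-strand pairs and −0.06 over all pairs. Of the 76 the pseudogene changed more upward than the host in 41 and less in 35, and the 95% interval of the difference included 0 in 73. The median SE of the difference was 0.29. On simulated data the test of pairs recovered 47.7% of 2-fold differences at means under 50, so that many differences of that size would be missed. Those data held 200 changed genes, while 4 genes were called here. With few changed genes the adjusted threshold is stricter, so recovery in these hearts may be lower than simulated. Among the 71 same-strand hosts, *Trdn* was called, and the log2 fold changes of the others lay between −0.21 and 0.18. At an unadjusted p under 0.05 there were 6 hosts (8.45%, against 5.74% of all genes). *Trdn* was higher in KO, and *Zbtb20*, *Pde4d*, *Wdr41*, *Acadl* and *Itpr2*, named after their values were seen, had lower values (7.04% of the hosts, against 2.8% of all genes), with adjusted p-values of at least 0.803 in limma.

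**Figure D5:**
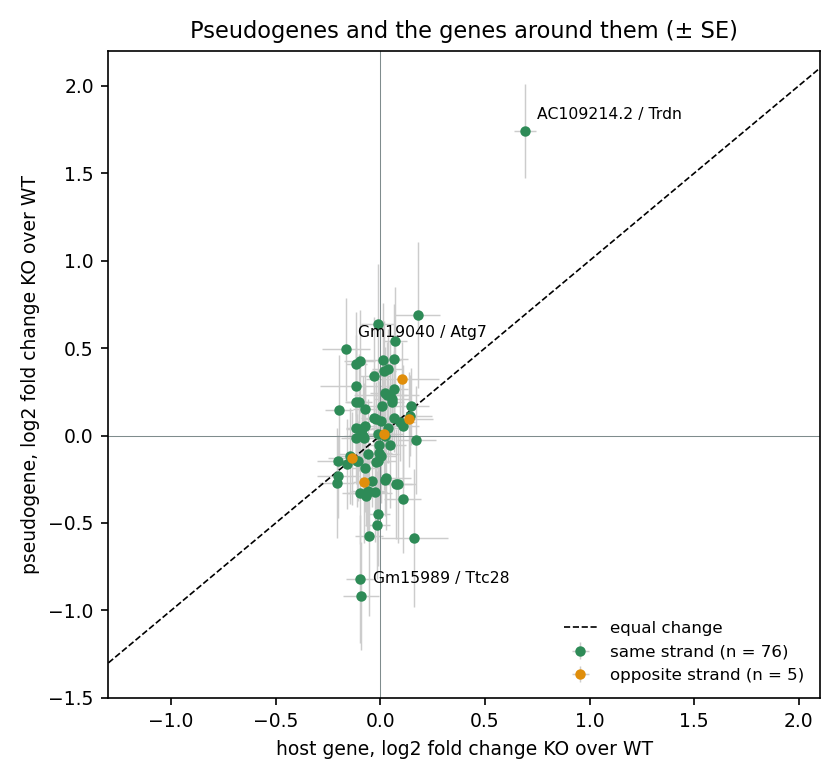
Log2 fold change of KO over WT of the host gene (horizontal) and of the pseudogene inside it (vertical) with standard errors, for 76 same-strand and 5 opposite-strand pairs; the dashed line marks equal change. All hosts but Trdn lie between −0.21 and 0.18 while the pseudogenes spread from −0.92 to 1.74.

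After *AC109214.2*, the pairs with the smallest p-values were these. The log2 fold change of *Gm15989* minus that of *Ttc28* was −0.82 (SE 0.31, 95% interval −1.47 to −0.18), with *Ttc28* at 335, 358 and 346 in KO and 414, 385 and 316 in WT. *Gm19040*, a long copy of the microtubule gene *Camsap1* (88.9%) of 4726 bases, lies in *Atg7*, the gene of an activating enzyme of autophagy. It had 17, 18 and 17 in KO and 9, 12 and 16 in WT, without overlap, while *Atg7* had 118, 111 and 102 in KO and 117, 138 and 117 in WT. The difference was 0.66 (SE 0.30, 95% interval 0.03 to 1.29). The log2 fold change minus that of the host was −0.75 (SE 0.40) for *Gm37559* in *Mpzl1*, −0.72 (SE 0.39) for *Gm13315* in *Cacnb2* and 0.65 (SE 0.36) for *Gm13786* in *Phf21a*. *Gm13315* and *Gm13786* became members by the values of 1 group, as given above. The intervals of these 3 included 0, and *Gm37559*, at 11, 4 and 18 in KO and 14, 15 and 15 in WT, was spread far more widely in KO.

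In 4 hosts there were several members, which share a host and cannot be taken as independent. *Zbtb20*, which encodes a zinc finger repressor, holds 3 in 3 different introns. *Gm15712*, a copy of *Rpl3* (71.4%), had 46, 43 and 37 in KO and 33, 38 and 53 in WT. *Gm15711*, a copy of the nuclear transport gene *Rangrf* (92.3%), had 13, 23 and 18 in KO and 16, 10 and 22 in WT. *BC002163*, a copy of the complex I gene *Ndufs5* (99.4%), had 17, 14 and 16 in KO and 13, 9 and 13 in WT, which do not overlap. Their log2 fold changes were 0.04 (SE 0.20), 0.19 (SE 0.31) and 0.41 (SE 0.30), against −0.11 (SE 0.05) for *Zbtb20*. Per kilobase they had 0.154, 0.136 and 0.184 times the exonic density of *Zbtb20*, ratios that lie close together.

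The pairs in the other 3 hosts were as follows. In the Polycomb gene *Pcgf5*, *AC117769.3*, a copy of *Ik* (85.5%), had 61, 32 and 52 in KO and 40, 45 and 32 in WT. *AC117769.2*, a copy of *Rpl29* (78.3%) in another intron of *Pcgf5*, had 13, 18 and 13 in KO and 9, 9 and 14 in WT. Their densities were 0.555 and 0.571 times that of *Pcgf5*, again close to each other. In *Acyp2*, *Gm12098*, a copy of the exon junction gene *Rbm8a* (83.7%), shares an intron of 126 kb with *Gm12097* and had 20, 24 and 27 in KO and 30, 21 and 34 in WT. *Gm12097* and *Gm12098* had 0.475 and 0.305 times the density of *Acyp2*. In *Phf21a*, *Gm13785*, a copy of *Rps6* (74.2%), shares an intron of 89.5 kb with *Gm13786*. It had 10, 12 and 12 in KO and 11, 8 and 16 in WT, a log2 fold change of 0.01 (SE 0.33), whereas that of *Gm13786* was 0.64. Their densities, 0.566 and 1.054 times that of *Phf21a*, also lie further apart than those in *Pcgf5*.

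The 6 members on the opposite strand are not part of the transcript of their host, and counting was strand-specific. *Fabp3-ps1*, in an intron of 1.90 kb of *Ttc41*, had 37, 30 and 43 in KO and 34, 28 and 25 in WT. It had 10.2 times the exonic density of *Ttc41*, which was at 44, 43 and 46 in KO and 38, 39 and 47 in WT. *Fabp3-ps1* shared 55.5% of its words with another transcript. *Hmgb1-ps8*, a copy of the chromatin gene *Hmgb1* (95.8%), had 16, 18 and 20 in KO and 25, 23 and 17 in WT, and its host *H60b* had a mean of 0.833 and was not tested. *Mpc1-ps*, a copy of the pyruvate carrier gene *Mpc1* (99.7%) in *Zfp839*, had 17, 14 and 17 in KO and 20, 15 and 18 in WT. All 3 overlap between groups.

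*Rpl14-ps1* (98.9%), in the cation channel gene *Trpm4*, had 17, 17 and 15 in KO and 14, 18 and 14 in WT. *Gm14890*, a copy of *Hars2* (89.4%), lies in *Fgf13*, which encodes a modulator of sodium channels, and had 10, 11 and 12 in KO and 10, 10 and 13 in WT. *Gm14117*, a copy of the ATP synthase assembly gene *Atpaf1*, lies in *Ralgapa2* and had 7, 8 and 15 in KO and 13, 12 and 10 in WT. The difference from the host was 0.22 (95% interval −0.27 to 0.71) for *Fabp3-ps1*, −0.19 (−0.93 to 0.55) for *Gm14117*, −0.05 (−0.62 to 0.53) for *Rpl14-ps1* and −0.01 (−0.72 to 0.69) for *Gm14890*. Each interval spans 0 and leaves room for sizeable differences in both directions. Of the 6, 4 had a higher density per kilobase than the exons of their host.

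Of the 124 members with a parent, 70 had one outside the 5 parent lists. The longest of these lists held copies of cytosolic ribosomal protein genes, 28 members from 19 parents. Of these 18 were on the same strand as a host, 1 on the opposite strand and 9 intergenic. The 3 highest were *AC131743.4* and *Gm15712*, given above, and *Gm13868*, a copy of *Rpl37* (82.2%) in *Trim44*, with 32, 25 and 25 in KO and 30, 32 and 36 in WT. The log2 fold change was above 0 in 15 of the 28 and below 0 in 13, and its median was 0.00. Their 19 parents had a median of −0.03, with 5 higher and 14 lower, and none was below an unadjusted p of 0.05.

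Copies of genes for translation factors and nuclear proteins made up 15 members from 11 parents. The intergenic *Gm4204*, a copy of the histone chaperone gene *Nap1l1* (99.5%), had 28, 23 and 26 in KO and 21, 23 and 23 in WT. *AC163286.2*, a copy of *Hnrnpa2b1* (82.7%) in *Rapgef5*, had 18, 27 and 32 in KO and 16, 25 and 23 in WT. *Gm6548*, an intergenic copy of the elongation factor gene *Eef1a1* (96.7%), had 21, 24 and 27 in KO and 16, 21 and 27 in WT. The median was −0.11 in these 15 members and −0.02 in their parents. Here 6 members were higher and 9 lower, and no parent was below an unadjusted p of 0.05.

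Copies of nuclear genes of mitochondrial proteins numbered 6. *Gm42672*, a copy of the complex I gene *Ndufb4* (77.1%) in *Arnt*, had 32, 30 and 28 in KO and 23, 29 and 33 in WT. *Gm4045*, an intergenic copy of the ATP synthase gene *Atp5l* (97.7%), had 19, 20 and 18 in KO and 25, 21 and 20 in WT. *Gm2962*, a copy of the complex III gene *Uqcrb* (98.2%), had 16, 13 and 14 in KO and 18, 14 and 10 in WT, and its host *Fcrla* had a mean of 2.17. *Gm4045* overlapped only by a tie at 20. Of the 6 members 5 were higher in KO, and of the 6 parents 5 were lower, with medians of 0.09 and −0.09.

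The list of cytoskeleton, chaperone and iron genes had 4 members, and that of glycolysis and housekeeping enzymes had 1, *Gm13315*. Besides *Gm9403*, they were led by *Gm15937*, a copy of *Hsp90aa1* (70.4%) in *Ttc33*, with 29, 21 and 27 in KO and 26, 39 and 33 in WT, and by *Gm17228*, a copy of the actin gene *Actg1* (91.9%) in *Fbxl17*, with 18, 13 and 30 in KO and 20, 13 and 28 in WT. Of all 102 parents tested, none had an adjusted p under 0.05 in limma, and 4 (3.92%) had an unadjusted p under 0.05, against 5.74% of all genes. Named after their values were seen, *Hsp90ab1* (−0.16), *Hsp90aa1* (−0.29) and *Srpr* (−0.48), the receptor of the signal recognition particle, had negative log2 fold changes and *Cdyl* (0.27) a positive one. Their copies *Gm9403*, *Gm15937*, *Gm6733* and *Gm7584* had log2 fold changes of −0.12, −0.33, −0.28 and 0.01.

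The widest spread between hearts did not follow the genotype. *Gm9825*, an intergenic copy of the splicing gene *Rnps1* (99.4%) on chromosome 6 and chosen after its values were seen, had 3, 32 and 5 in KO and 4, 1 and 24 in WT. It was high in 1 heart of each group and low in the other 4, and 58.3% of its words were shared with another transcript. Just under the limit, the intergenic *Gm9625* had 5, 2 and 5 in KO and 26, 15 and 5 in WT. There, 2 WT hearts were above all others.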

How the data were processed

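Hearts of 3 KO and 3 WT mice were analysed from 1 table of strand-specific total RNA-seq. According to the study's methods and the submitters' processing notes, single-end reads of 75 bases were trimmed (Trimmomatic 0.39) and aligned to GRCm38 with STAR 2.6.1d. Duplicates (Picard 2.21.1), multi-mapping, ribosomal and mitochondrial reads were removed, and exonic reads were counted per gene and strand with featureCounts 1.6.5. The deposited score of each gene and heart is this count divided by the DESeq2 1.18.1 size factor by the authors, rounded to a whole number. Reads that fit several places were lost, so the values of copies close to their parent are uncertain.

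Here, size factors were estimated from the skipped and repeated whole numbers (0.795 to 1.15; tested on simulated data, errors of at most 0.00406%), for read totals and counting intervals only. Depth was 2.59 to 3.62 M reads per heart. Values were analysed as log2(value + 1) for genes with a mean of at least 10, with limma 3.58.1 in R 4.3.3 (two-sided, mean-variance trend, Benjamini-Hochberg adjustment over all genes or all nested pairs, threshold 0.05). The host comparison tested the difference between the log2 ratios of a feature and its host. Data were simulated with 200 changed genes and the same dispersion for all genes, which need not hold in these hearts. On these simulated data, 96.2% of 3-fold and 58.5% of 2-fold changes were recovered for genes with means under 50. For pairs, 91.7% and 47.7% were recovered, where 3.95% and 12.5% of the calls were false over all means. Hosts contain the whole pseudogene by the table's coordinates. Densities per kilobase divide the mean by the merged exon length, for pseudogenes and hosts alike. Exons and sequences came from GENCODE M21, which has all 129 members at the same coordinates, and parents from blastn 2.17.0.

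The members, gene lists and tests were chosen with earlier results of these data known. Named genes were the processed pseudogenes inside *Trdn*, the 8 members with the highest mean, the 8 with the smallest p, the 6 same-strand and 4 opposite-strand members with the smallest p against the host, the 3 on each side of the limit, hosts with 2 or more members, the 5 highest members of each strand class, and the 3 highest of each parent list. Others are said to be chosen after their values were seen. Alternatives were another pseudocount, filters, scalings, limma without trend, limma-voom, a replicate block, other host definitions, a threshold of 0.01 and leaving out each heart.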

Additional observations from a re-analysis of the deposited data

How the results depend on the processing

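The count of called genes, 4 of all genes and 1 of the pseudogenes, depended on the setting. With at least 10 in every sample it was 2 over all genes and 0 among the pseudogenes, in limma without the trend 1 and 0, and at an adjusted p of 0.01 it was 2 and 0. Leaving out 1 heart at a time gave 2 to 32 called genes and 0 to 1 called pseudogenes. The 32 were reached without KO replicate 1, the 2 without KO replicate 2 or WT replicate 1, and 7 without WT replicate 3. At an unadjusted p under 0.05, 5 pseudogenes became 0 with at least 10 in every sample, where none of the 5 was tested because each has a heart under 10, and 10 in limma without the trend, and 4 to 8 with 1 heart left out. The 8 came without KO replicate 2 and without WT replicate 3. The 3 pseudogene and host pairs at an unadjusted p under 0.05 became 0 with at least 10 in every sample, again because none of the 3 was tested, and 6 without the trend, and 2 to 4 with 1 heart left out, while 0 were called under any of the 16 alternatives. The 4 parent genes at that level became 2 without the trend, and 2 to 15 with 1 heart left out, 15 without WT replicate 3, 7 without KO replicate 1 and 2 without WT replicate 1. The other causes were not tested.

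Of the 20 log2 fold changes and differences recomputed, 2 turned direction when a heart was left out. *Rpl14-ps1* minus *Trpm4* was 0.0204 without WT replicate 2, within a range of −0.13 to 0.0204, and *Gm14890* minus *Fgf13* was 0.06 without KO replicate 1 and 0.19 without WT replicate 3, within −0.18 to 0.19. The difference between *AC109214.2* and *Trdn* stayed between 0.92 and 1.199 over 14 alternatives, with adjusted p-values from 0.262 to 0.760. The median of all 129 members lay between −0.08 and 0.03 and that of the intergenic members between −0.12 and −0.02. The same-strand median turned sign, between −0.08 and 0.13 (0.13 without WT replicate 3), and so did the opposite-strand median, which lay between −0.12 and 0.01 in all alternatives but one, where 0.32 is the value of *Fabp3-ps1* alone, the 1 such member with a mean of at least 20.

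Same-numbered KO and WT hearts were not paired, with correlations of their deviations of 0.05, −0.07 and −0.03. With a replicate block, 4 genes, 1 pseudogene (*AC109214.2*, adjusted p = 0.0432 in limma) and 0 pairs were called, and 5 pseudogenes, 3 pairs and 5 parents were at an unadjusted p under 0.05.

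With 2.59 to 3.62 M reads per heart and a mean under 20 in 80 of the 129 members, the tests recovered 58.5% (genes) and 47.7% (pairs) of simulated 2-fold changes at means under 50. Reads shared with the parent were discarded before counting, so levels of near-identical copies are low by an unknown amount.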
